A study of Mus musculus with 2 samples.

Results

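The keratin and claudin genes read by the arrays were described here, to see which kind of epithelium their transcripts belonged to and how their signals compared between the 2 genotypes. Members were taken by name alone, as every probe whose array gene symbol was Krt or Cldn followed by a number (with at most 1 further letter for keratins). This gave 95 probes of 69 genes, out of 45281 probes and 19057 named genes on the array. Of these, 49 genes were keratins (66 probes) and 20 were claudins (29 probes), and 17 of the 69 genes had several probes. A further 8 mouse genes with such names (*Cldn20*, *Cldn22*, *Cldn24*, *Krt32*, *Krt36*, *Krt81*, *Krt83* and the pseudogene *Krt74*) had no probe under their name and were not analysed here.

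The data were 2 Illumina MouseWG-6 v2.0 arrays of RNA labelled as from ovaries of female C57BL/6 mice. One array held pooled RNA of wild-type mice (WT) and the other pooled RNA of littermates homozygous (HOM) for Y123F, a knock-in leptin receptor in which phenylalanine replaces Tyr985, Tyr1077 and Tyr1138 in every cell that expresses it. The mice of the study were 12 weeks old, and no treatment separated the groups. With 1 array per genotype and RNA pooled before labelling, there was no measure of the spread between animals, no gene could be tested, and genotype and array cannot be told apart. In RNA of whole tissue, fewer cells of a type and less RNA per cell cannot be told apart either.

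Keratins are the intermediate filament proteins of epithelial cells, and each filament is built from pairs of a type I and a type II chain. Which pair a cell makes is a classic sign of its kind: Krt8 with Krt18 in simple epithelium, Krt5 with Krt14 in the basal layer of stratified epithelium, and Krt1 with Krt10 in the layers of the epidermis above it. Claudins are the membrane proteins that form the strands of tight junctions, where some seal the space between cells and others line channels for ions. Simple epithelium lines the oviduct and uterus and covers the ovary, so members of both families are known from each of these organs.

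Detection was called for a probe whose detection p-value lay under 0.01, and for a gene where any of its probes met this. The lowest signal so called was 15.1 (WT) and 15.9 (HOM), and the median signal of detected probes was 89.0 and 99.2. Signals are printed as deposited, and log2 HOM/WT after background correction and quantile normalization. Of the 11 measured markers of ovarian somatic cells and oocytes, 2 were detected on both arrays and 2 on 1 array. *Star*, the cholesterol carrier of steroid-producing cells, had signals of 1.44 (WT) and 1.72 (HOM), and *Foxl2*, a transcription factor of granulosa cells, had 6.35 and 10.1, all below the detection limit. *Inha*, the inhibin alpha subunit of granulosa cells, was detected with 21.6 and 49.3. The oocyte growth factor *Gdf9* was detected on both arrays as well, with 21.3 and 34.7. *Bmp15*, its close relative in the oocyte, was above the limit in HOM alone (7.91 and 17.9), and *Zp2*, of the coat around the oocyte, in WT alone (15.2 and 13.7). Of the 8 measured markers of uterine and oviduct epithelium, 7 were detected on both arrays and the remaining gene, *Prss28*, on the HOM array only. The labelled organ therefore rests on few of its own defining markers, and this holds for every value below.

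Of the 69 members, 18 were detected on both arrays, against 45.6% of all named genes, 5 were detected on 1 array, and 46 were detected on neither. Counting detection on at least 1 array gave 23 members, against 51.6% of all genes. Detected members were 12 of 49 keratins and 11 of 20 claudins. By their brightest probes, the undetected members had signals of -12.7 to 13.7 on the WT array and -13.3 to 14.9 on the HOM array. This is within the background of each array and leaves low levels undetectable.

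**Figure D1:**
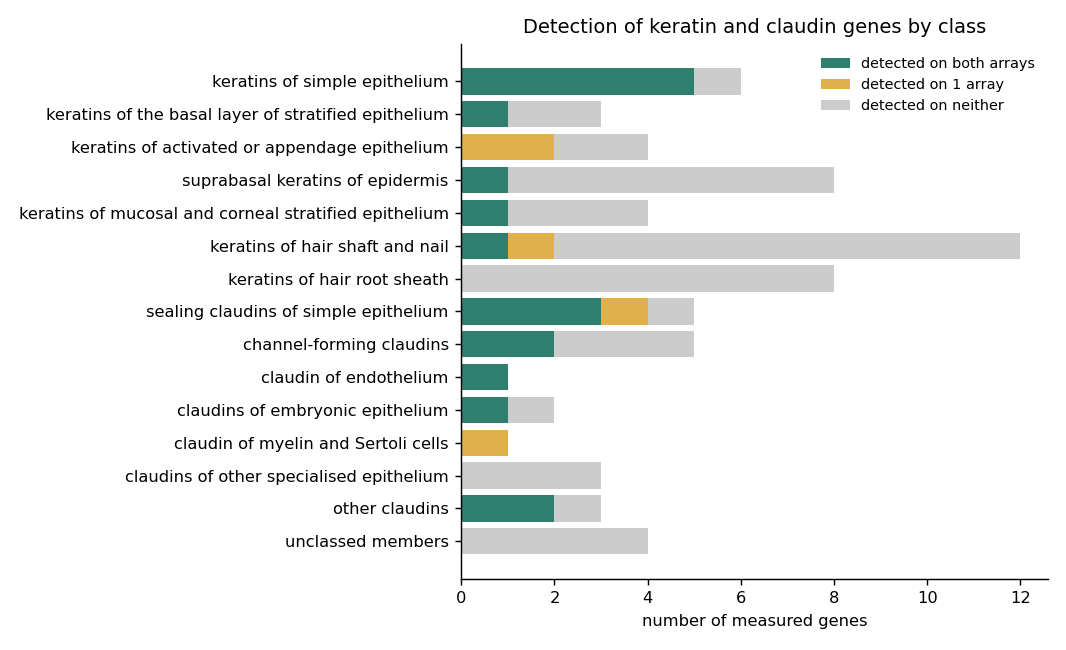
Number of measured keratin and claudin genes (x axis) in each class (y axis), split into genes detected on both arrays, on 1 array or on neither. Keratins of simple epithelium were detected for 5 of 6 genes, whereas none of the 8 keratins of the hair root sheath was detected.

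The keratins of simple epithelium were the class detected most completely among the keratin classes of 3 or more genes, with 5 of 6 members detected on both arrays. *Krt8*, the type II chain of simple epithelium, had signals of 887 (WT) and 1088 (HOM) by 1 probe, while its second probe was undetected with -4.20 and -10.3. *Krt18*, its type I partner and its neighbour on chromosome 15, had 468 and 637. Both members of the pair were therefore far above the detection limit on both arrays. *Krt19*, a type I keratin of ducts and of single-layered linings, had 106 and 206. *Krt7*, a type II keratin of glandular and ductal epithelium, had 47.5 and 99.7. *Krt23*, a type I keratin of some glandular epithelia, had 679 and 1057. All 5 had a higher deposited signal on the HOM array, as did most genes before scaling: over all detected genes the log2 ratio had a median of 0.28 without scaling and 0.04 after quantile normalization. The sixth, *Krt20*, a type I keratin of intestinal and bladder epithelium, was detected on neither array, with -12.7 and -1.17.

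After normalization the ratios of the Krt8 and Krt18 pair were nearer to 0 than those of the other 3. The log2 HOM/WT was -0.04 for *Krt8* and 0.12 for *Krt18*. It was 0.31 for *Krt23*, 0.59 for *Krt19* and 0.65 for *Krt7*, the last a 1.57-fold higher value on the HOM array. To judge such sizes, probes of the same gene on the same arrays differed in log2 HOM/WT with an SD of 0.33 (3225 genes that had more than 1 detected probe), and the ratios of *Krt8*, *Krt18* and *Krt23* were smaller than this, those of *Krt19* and *Krt7* larger. Of all detected genes, 3.52% had a log2 HOM/WT at least as high as *Krt7*, 5.12% at least as high as *Krt19* and 22.6% at least as high as *Krt23*. The median of the 5 was 0.31, beside 0.04 over all detected genes, and since the choice of these genes as a class drew on earlier results of the data, the contrast is a description only.

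The promoters of these genes are shown because the class was read as a whole and its members differ in the sequence at their start. Each line holds 250 bases before and 50 bases from the annotated start, taken from RefSeq on GRCm38.p6 and printed 5′ to 3′ along the gene, with capitals marking the GC box (GGGCGG or its complement) and the TATA box (TATAAA or its complement). *Krt20* is the undetected member of the class. *Krt19* had no window in the table used.
Krt7, chr15:101412153-101412452, + strand: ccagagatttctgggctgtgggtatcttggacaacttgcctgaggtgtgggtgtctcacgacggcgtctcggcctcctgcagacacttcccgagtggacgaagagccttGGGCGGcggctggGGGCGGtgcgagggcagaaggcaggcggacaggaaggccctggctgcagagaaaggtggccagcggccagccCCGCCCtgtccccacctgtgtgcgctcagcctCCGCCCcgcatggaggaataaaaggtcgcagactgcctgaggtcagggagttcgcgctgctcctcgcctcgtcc
Krt8, chr15:102004293-102004592, - strand: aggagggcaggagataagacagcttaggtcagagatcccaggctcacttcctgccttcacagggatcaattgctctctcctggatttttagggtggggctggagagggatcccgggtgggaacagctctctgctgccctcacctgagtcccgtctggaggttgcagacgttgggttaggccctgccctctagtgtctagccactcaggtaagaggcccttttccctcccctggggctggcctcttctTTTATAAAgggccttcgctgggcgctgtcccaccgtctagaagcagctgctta
Krt18, chr15:102027966-102028265, + strand: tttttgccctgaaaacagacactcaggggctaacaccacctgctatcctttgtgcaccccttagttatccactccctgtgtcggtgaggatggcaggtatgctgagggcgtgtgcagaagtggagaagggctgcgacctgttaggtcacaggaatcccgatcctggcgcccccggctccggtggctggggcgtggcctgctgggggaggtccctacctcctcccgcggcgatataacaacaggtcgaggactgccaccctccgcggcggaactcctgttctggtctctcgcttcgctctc
Krt23, chr11:99493071-99493370, - strand: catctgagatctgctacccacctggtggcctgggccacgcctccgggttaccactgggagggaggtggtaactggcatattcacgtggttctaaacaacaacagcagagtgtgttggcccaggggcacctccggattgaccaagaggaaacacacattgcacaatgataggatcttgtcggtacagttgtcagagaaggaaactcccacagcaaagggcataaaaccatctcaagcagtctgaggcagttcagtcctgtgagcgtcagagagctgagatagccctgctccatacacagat
Krt20, chr11:99438104-99438403, - strand: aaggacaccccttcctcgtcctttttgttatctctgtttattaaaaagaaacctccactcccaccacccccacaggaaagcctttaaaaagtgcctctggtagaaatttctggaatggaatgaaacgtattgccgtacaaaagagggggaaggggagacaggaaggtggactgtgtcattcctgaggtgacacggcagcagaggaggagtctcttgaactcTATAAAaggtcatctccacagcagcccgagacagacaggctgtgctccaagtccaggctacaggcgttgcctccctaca

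The *Krt7* window held 4 GC boxes and no TATA box, and 66.3% of its bases were G or C. The *Krt8* window held the TATA box letters on both strands, overlapping at the start itself, and no GC box. Neither motif stood in the windows of *Krt18* and *Krt23*, and the *Krt20* window held 1 TATA box 29 bases before the start.

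The same motifs were counted over all members. A GC box stood in 11 of 22 windows of 18 detected genes and in 4 of 37 windows of 32 undetected genes, against 35.7% of all 32851 windows. The TATA box stood in 5 of the 22 and 14 of the 37 windows, against 13.6% of all. A further 3 motifs, of factors known in epithelium, were searched on both strands. The Grainyhead-type motif AACCNGTT stood in 1 of 22 and 0 of 37 windows (2.09% of all), and that 1 window belonged to *Cldn5*. The AP-2-type motif GCCNNNGGC stood in 7 and 6 windows (16.6% of all), and the E-box CACCTG, which is the core of Snail and Zeb sites, in 9 and 11 windows (20.2% of all). The windows of detected members had a median of 58.2% G and C, those of undetected members 50% and all windows 52.7%. The GC box consists of G and C alone, so its counts and the base composition are not separate readings. The windows were not split by family. Of all members, 12 keratins and 11 claudins were detected, whereas 37 keratins and 9 claudins were not. Keratin or claudin family and detection are therefore mixed in these counts and in the base composition, and no link of a motif with detection can be read. Windows of 1 gene overlap in part, and a match is a run of letters, not a bound site.

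The keratins that define stratified epithelium were mostly undetected. In the basal layer class, *Krt5* had signals of 2.41 (WT) and 2.33 (HOM) and *Krt15* had -0.886 and -2.19, all undetected. *Krt14*, the type I partner of *Krt5*, was detected at the edge of the limit, with signals of 15.6 and 17.7 and detection p-values of 0.00855 and 0.00534. Its log2 HOM/WT was -0.03. So the basal pair was not detected as a pair on either array.

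Of the 4 keratins of activated or appendage epithelium, which are known from wounded skin and from glands and hair, *Krt16* was detected in HOM alone and *Krt17* in WT alone. *Krt16* had signals of 7.69 (WT) and 17.6 (HOM), and no bound above 1 can be given for its ratio. *Krt17* had 18.8 and 14.4, which makes it at least 1.18-fold lower in HOM when set against the dimmest detected probe there. Such a bound makes no allowance for measurement error. The other 2 of the class, *Krt6a* and *Krt6b*, were undetected, with signals of 0.42 to 7.46 by their brightest probes.

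Among the 8 suprabasal keratins of epidermis only *Krt10* was detected, and it was detected clearly. Its signals were 235 (WT) and 291 (HOM), with a log2 HOM/WT of 0.00 because the probe held the same rank on both. *Krt1*, the type II chain that pairs with it in epidermis, had -4.63 and -6.69. *Krt10* was thus read without its partner. By their brightest probes, the remaining 6 lay between -11.0 and -0.201 on the WT array and between -5.38 and 3.21 on the HOM array.

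*Krt12*, the type I keratin of the corneal epithelium, was detected on both arrays by both of its probes. The first had signals of 48.4 (WT) and 60.5 (HOM) with a log2 HOM/WT of 0.05, and the second 39.0 and 56.7 with 0.21. *Krt12* lies next to *Krt10* on chromosome 11 and overlaps the gene A830036E02Rik in the annotation, so the probes may read either gene. *Krt4*, *Krt13* and *Krt76*, keratins of mucosal stratified epithelium in the same class, were undetected, with a highest signal of 10.3.

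Of 12 measured keratins of hair shaft and nail, 2 were detected, both near the limit. *Krt84*, a type II hair keratin, had 19.6 (WT) and 15.98 (HOM), with a log2 HOM/WT of -0.28. *Krt40*, a type I hair keratin, had 13.6 and 16.8 and was detected on the HOM array only, with no bound above 1. The other 10 were undetected. None of the 8 keratins of the hair root sheath was detected. The brightest of them, *Krt75*, known from the companion layer of the follicle, had 13.7 and 10.6. *Krt24*, *Krt88*, *Krt90* and *Krt222*, which were put in no class, were undetected too.

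Keratin genes lie in 2 clusters, the type I genes on chromosome 11 and the type II genes on chromosome 15. Of 25 measured keratins on chromosome 11, 8 were detected, and of 24 on chromosome 15, 4 were (*Krt7*, *Krt8*, *Krt18* and *Krt84*). *Krt18* is the type I gene that lies in the type II cluster, beside *Krt8*. Detected and undetected genes stood side by side in both clusters: *Krt23*, for example, is the neighbour of the undetected *Krt20*.

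**Figure D2:**
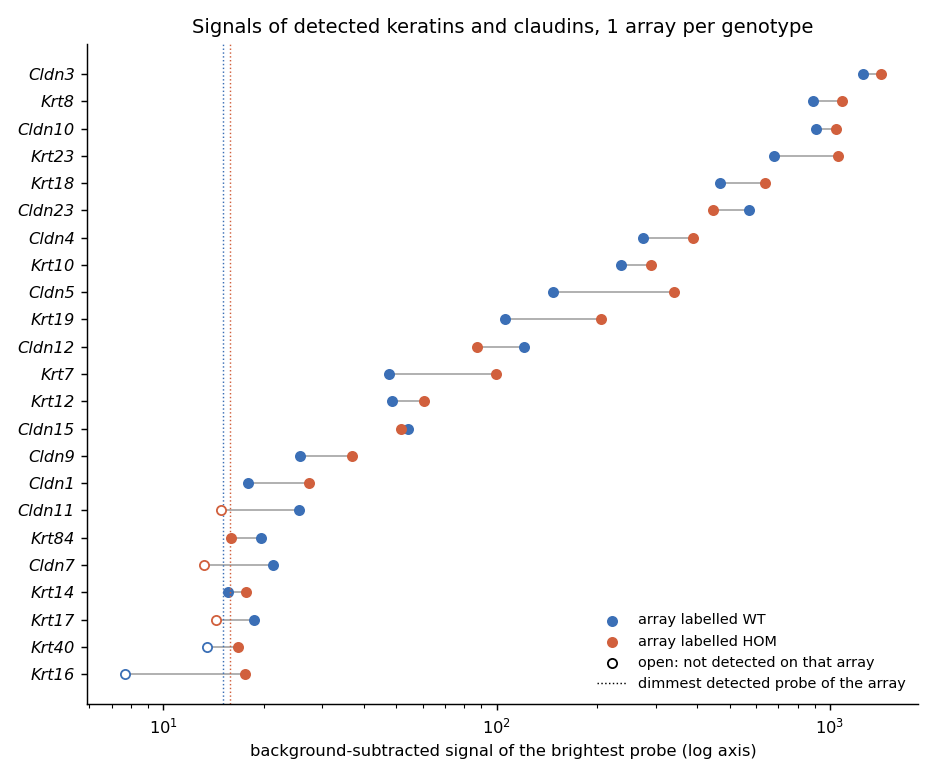
Deposited signal of the brightest probe (log x axis) of each of the 23 detected genes (y axis) on the array labelled WT and the array labelled HOM, joined by a line, with open circles where the probe was not detected and dotted lines at the dimmest detected probe of each array (15.1 and 15.9). Signals of different probes are not on a common scale, so the order of genes is for display, and only the 2 points of a line can be compared.

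Of the 5 sealing claudins of simple epithelium, which tighten the junction between cells, 3 were detected on both arrays and 1 on the WT array only. *Cldn3* had signals of 1255 (WT) and 1419 (HOM), with a log2 HOM/WT of -0.14. *Cldn4*, its neighbour on chromosome 5, had 274 and 388, with 0.17. Both were far above the limit on both arrays, and both ratios were smaller than the SD between probes of 1 gene. *Cldn1*, the sealing claudin also known from epidermis, had 17.95 and 27.4, with 0.20. *Cldn7*, known from the sides as well as the apex of epithelial cells, had 21.3 and 13.3 and was at least 1.27-fold lower in HOM. *Cldn8*, known from the kidney, was undetected with 3.15 and 5.47. *Cldn3* overlaps the gene *Wbscr25* in the annotation.

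Of the 5 channel-forming claudins, *Cldn10* and *Cldn15* were detected on both arrays, and *Cldn2*, *Cldn16* and *Cldn17* on neither. *Cldn10*, which forms ion channels that differ with the isoform, was read by 5 probes. The brightest had 909 (WT) and 1040 (HOM) with a log2 HOM/WT of -0.12. A second had 148 and 211 with 0.19, and the third 175 and 158 with -0.42. The other 2 probes were undetected on both arrays, from -8.05 to -0.374. The 3 detected probes thus disagreed in direction. *Cldn15*, a cation channel known from the intestine, had 54.3 and 51.8 by its brightest probe, with -0.26. Its second probe was detected in WT alone (16.8 and 15.1), and the third on neither.

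**Figure D3:**
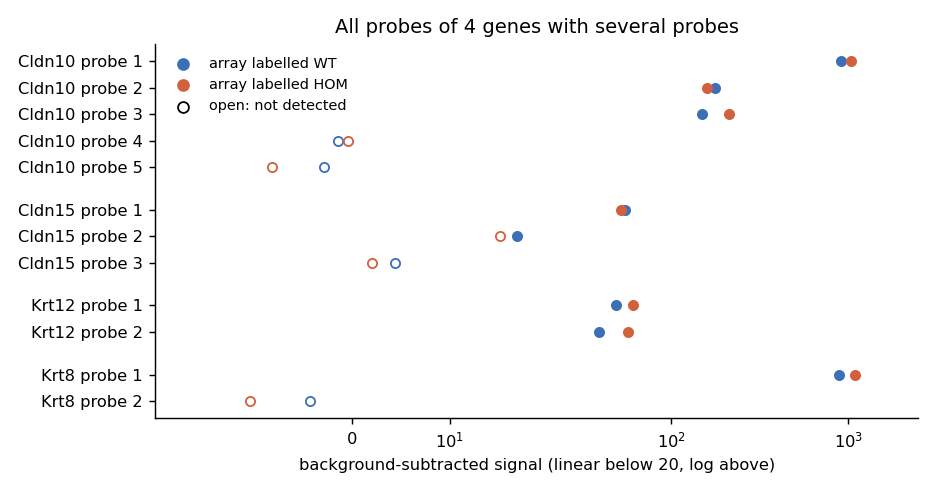
Deposited signal (x axis, linear below 20 and log above) of every probe of *Cldn10*, *Cldn15*, *Krt12* and *Krt8* on the 2 arrays, with open circles where the probe was not detected. *Krt8* had 1 probe at 887 and 1088 and 1 below 0, and *Cldn10* had 3 detected probes and 2 undetected ones, so a gene's reading depended on the probe.

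Annotation gives *Cldn10* a pair of start windows, which are printed because the sequences differ. Its probes with -0.12 and 0.19, opposite in direction, are assigned to the same transcript, and the probe with -0.42 to another. *Cldn10* also overlaps Gm52105, Gm41248 and Gm32382 in the annotation. Which start each probe reads was not established here. Also shown is *Cldn5*, which had the highest ratio of the detected members.
Cldn10 first start, chr14:118787621-118787920, + strand: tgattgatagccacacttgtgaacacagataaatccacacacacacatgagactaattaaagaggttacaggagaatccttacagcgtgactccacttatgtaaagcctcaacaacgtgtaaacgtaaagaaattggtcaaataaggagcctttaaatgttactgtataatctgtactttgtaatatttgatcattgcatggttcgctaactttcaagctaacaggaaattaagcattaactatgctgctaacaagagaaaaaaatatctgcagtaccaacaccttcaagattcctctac
Cldn10 second start, chr14:118854700-118854999, + strand: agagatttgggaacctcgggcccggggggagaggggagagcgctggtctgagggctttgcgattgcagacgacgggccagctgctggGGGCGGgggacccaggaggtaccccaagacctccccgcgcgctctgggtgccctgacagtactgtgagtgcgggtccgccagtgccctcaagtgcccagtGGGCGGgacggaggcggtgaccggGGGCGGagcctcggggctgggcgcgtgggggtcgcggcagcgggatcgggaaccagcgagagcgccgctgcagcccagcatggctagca
Cldn5, chr16:18776597-18776896, + strand: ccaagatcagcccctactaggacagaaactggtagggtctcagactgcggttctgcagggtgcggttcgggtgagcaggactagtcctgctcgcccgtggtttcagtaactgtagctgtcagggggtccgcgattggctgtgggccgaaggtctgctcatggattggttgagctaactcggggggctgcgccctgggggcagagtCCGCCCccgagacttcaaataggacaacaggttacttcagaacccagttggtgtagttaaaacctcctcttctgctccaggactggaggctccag

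The first *Cldn10* window had 36% G and C and neither a GC box nor a TATA box, while the second had 72% and 3 GC boxes. The *Cldn5* window had 58.3%, with 1 GC box and the Grainyhead-type letters 20 bases before the start.

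*Cldn5*, the claudin of endothelium and a main seal of the blood-brain barrier, had signals of 148 (WT) and 340 (HOM). Its log2 HOM/WT of 0.84, a 1.79-fold higher value on the HOM array, was the highest of the 23 detected members, and 1.02% of all detected genes were at least as high. It rested on 1 probe. Endothelial markers did not share this size of difference. Of 10 measured, 8 were detected on both arrays and 1 on the HOM array only, with a median ratio of -0.05 on the log2 scale. Their summed signal before scaling was 5476 (WT) and 6440 (HOM), a ratio of 1.18, beside 1.20 over all genes. *Pecam1*, a junction protein of endothelial cells, had 241 and 384 with 0.34, while its second detected probe had -0.08. *Cdh5*, the cadherin of endothelium, had 289 and 290 with -0.29, *Tek*, the angiopoietin receptor, had -0.37 and *Emcn*, a surface sialomucin, had -0.44. *Erg*, an endothelial transcription factor, was undetected. Whether endothelial content had a part in the value of *Cldn5* was not tested.

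The remaining claudins detected on both arrays were *Cldn9*, *Cldn12* and *Cldn23*. *Cldn9*, known from embryonic epithelium and the inner ear, had 25.7 and 36.9 with a log2 HOM/WT of 0.16, while *Cldn6* of the same class was undetected. *Cldn12* had 121 (WT) and 87.6 (HOM) with -0.65, and *Cldn23* had 571 and 446, also with -0.65. Both had lower deposited signals on the HOM array, against the direction of most genes before scaling, and 6.47% and 6.39% of all detected genes had ratios at least as low. *Cldn11*, the claudin of myelin and of Sertoli cells, was detected in WT alone, with 25.5 and 14.9, and was at least 1.43-fold lower in HOM. *Cldn13*, *Cldn14*, *Cldn18* and *Cldn19* were undetected.

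No member passed the rule of size, a difference of at least 2-fold with detection on at least 1 array. Over all detected genes, 0.418% were 2-fold or more higher in HOM and 1.49% were 2-fold or more lower. By direction, 11 of the 23 detected members lay above 0 and 11 below, with *Krt10* at 0. Over all 9817 detected genes, 5285 lay above 0 and 4518 below. Of the members below 0, 4 (*Krt8*, *Krt14*, *Cldn3* and *Cldn10*) lay above it under median scaling or no scaling. The median log2 HOM/WT of the 23 members was 0.00, with 0.04 for the keratins and -0.14 for the claudins. The SD over all detected genes was 0.41. *Cldn5* alone passed 2-fold when the arrays were scaled by their medians (log2 HOM/WT 1.06) or not scaled (1.12), where 1.02% and 1.57% of all detected genes passed it upward and where the median of all detected genes was itself 0.22 and 0.28. *Cldn11* alone passed 2-fold downward without background correction or with the authors' normalized values, where 4.75% and 4.76% of all detected genes did. At a fold of 1.5 the members counted were 3 higher and 2 lower, against 5.27% and 8.3% of all detected genes.

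**Figure D4:**
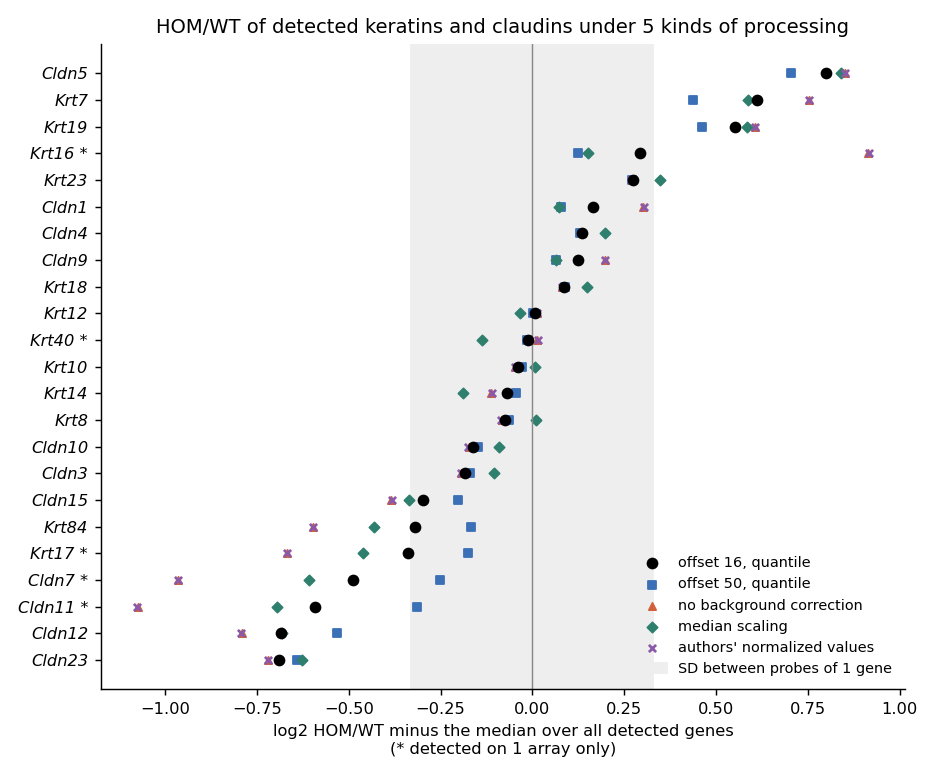
Log2 HOM/WT of each of the 23 detected genes minus the median over all detected genes (x axis), under the main processing (offset 16, quantile) and 4 others. The grey band marks plus and minus the SD of 0.33 between probes of 1 gene. This SD is that of the main processing and was not rescaled for the others. The SD over all detected genes was 0.41 in the main processing, 0.31 with an offset of 50 and 0.63 without background correction. *Cldn5*, *Krt7* and *Krt19* lay to the right of the band under all 5 kinds of processing shown, and *Cldn12* and *Cldn23* to the left, whereas *Krt16*, *Cldn7* and *Cldn11*, each detected on 1 array only (asterisks), moved by more than the SD with no background correction.

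Against the median of all detected genes, 9 detected members lay above it under all 6 kinds of processing compared, 10 lay below it under all 6, and 4 changed side. Above were *Krt7*, *Krt16*, *Krt18*, *Krt19*, *Krt23*, *Cldn1*, *Cldn4*, *Cldn5* and *Cldn9*. Below were *Krt14*, *Krt17*, *Krt84*, *Cldn3*, *Cldn7*, *Cldn10*, *Cldn11*, *Cldn12*, *Cldn15* and *Cldn23*. The 4 that changed side were *Krt8*, *Krt10*, *Krt12* and *Krt40*. How many of all detected genes kept a side was not counted. A fixed side under other processing of the same 2 arrays is not a repeat of the experiment.

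Partners of the claudins in the tight junction were read from a separate list. Of 12 measured, 6 were detected on both arrays, all 6 with a log2 HOM/WT below 0 by their brightest probes, against 4518 of all 9817 detected genes. The median of these 6 was -0.29, beside 0.04 over all detected genes, though *Ocln*, occludin, turned from -0.04 to 0.03 under median scaling. *Tjp1*, the scaffold protein ZO-1 that binds claudin tails, had 48.2 (WT) and 23.8 (HOM) with -0.87, and *Cgnl1*, which links the junction to actin, had 729 and 628 with -0.52. A second detected probe of *Cgnl1* had 15.9 and 19.4 with 0.02. *Marveld3*, a membrane protein of the junction, had 30.5 and 27.1 with -0.29, and *Tjp3*, another scaffold, had 23.6 and 20.3 with -0.28, while its second probe, detected in HOM alone, had 0.22. None reached the 2-fold rule in the main processing, but *Tjp1*, which had 1 probe, passed it with the authors' values (-1.27). The median of the 6 was -0.19 under median scaling, beside 0.22 over all detected genes, and -0.47 with the authors' values, beside 0.05.

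Of 16 measured genes of the adherens junction and of epithelial identity, 13 were detected on both arrays and 3 on neither, with 6 above 0, 7 below and a median log2 HOM/WT of -0.04. *Ctnnb1*, beta-catenin, had 1731 and 1179 with -0.86 by the brightest of its 4 probes, and *Grhl2*, a Grainyhead factor of epithelial cells, had 66.6 and 36.7 with -0.85. The mean over the 4 detected *Ctnnb1* probes was -0.46, and 1 of them, detected in HOM alone, had 0.42. *Cdh1*, E-cadherin, had 272 and 235 with -0.48, and *Esrp1*, an epithelial splicing factor, had 459 and 410 with -0.46. In the other direction *St14*, the epithelial protease matriptase, had 45.1 and 79.5 with 0.44, and *Ctnnd1*, p120-catenin, had 131 and 213 with 0.36. A second detected probe of *St14* had 29.1 and 31.1 with -0.12. *Muc1* had 41.2 and 66.6 with 0.33 by its brightest probe. The mean over its 3 detected probes was 0.61, and 1 of them, detected in HOM alone, had 1.23. *Epcam*, a surface marker of simple epithelium, was not detected by its 1 probe (8.57 and 2.67). Of 9 measured desmosome genes, 3 were detected on both arrays and 3 on 1 array. *Dsg2*, the desmoglein of simple epithelium, had 91.8 and 68.5 with -0.58. *Evpl*, envoplakin, was read above the limit in WT alone, at least 1.35-fold lower in HOM. *Pkp3*, a plakophilin, was read above it in HOM alone, at least 1.40-fold higher there, and *Dsc2*, a desmocollin, was detected on the HOM array only with no bound above 1.

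Markers of other cell types that carry keratins or claudins gave the following readings. Of 13 measured markers of stratified and cornified epithelium, 2 were detected on both arrays, 1 on the HOM array only and 10 on neither. Their summed signal before scaling was 112 (WT) and 165 (HOM), a ratio of 1.48, beside 1.20 over all genes. The 10 undetected genes entered this sum as well, so part of it is background. The same ratio was 1.80 for the ovarian, 1.57 for the ciliated, 1.08 for the smooth muscle and 0.92 for the mesothelial markers. *Lor*, loricrin of the cornified envelope, had 39.6 and 70.9 with a log2 HOM/WT of 0.44, and *Sbsn*, suprabasin, had 25.1 and 44.3 with 0.37. *Trp63*, the transcription factor of basal cells, had 6.78 and 15.97 and was detected on the HOM array only, with no bound above 1. *Dsg3*, *Ivl* and *Sfn*, further markers of stratified epithelium, were undetected. Of 5 measured mesothelial markers, *Upk3b* (85.1 and 89.0) and *Upk1b* (48.5 and 38.3) were detected, while *Msln* (12.7 and 8.35) and *Lrrn4* were not. The printed *Upk3b* probe had a log2 HOM/WT of -0.18, whereas a second detected probe of it had 68.4 and 31.4 with -1.03. Of 6 ciliated cell markers, *Rsph1*, a radial spoke protein, was detected on both arrays (66.5 and 106), *Tekt1* on the HOM array only, and *Foxj1*, the master factor of motile cilia, on neither. Of 8 smooth muscle genes 7 were detected on both arrays.

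**Figure D5:**
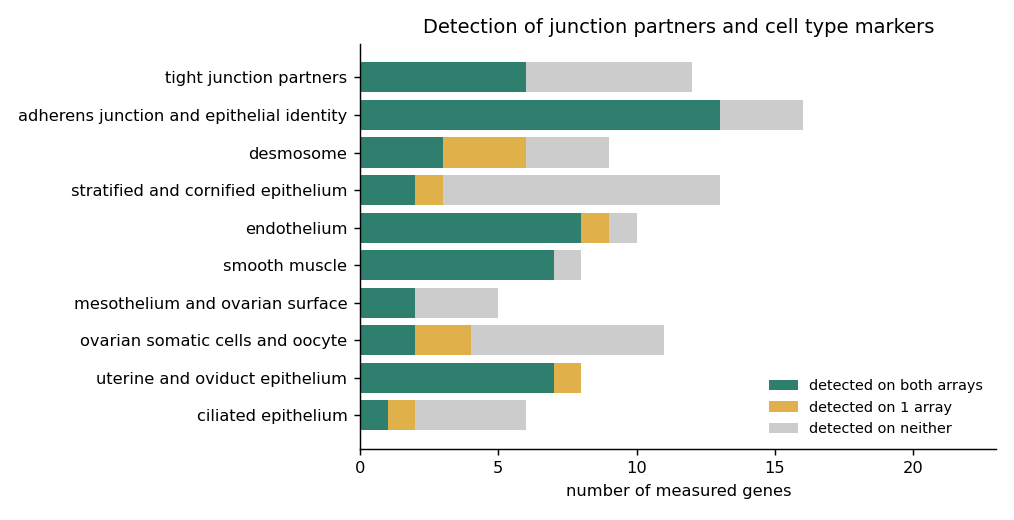
Number of measured genes (x axis) of each list of junction partners and cell type markers (y axis), split into genes detected on both arrays, on 1 array or on neither. The adherens junction and epithelial identity list had 13 of 16 genes detected on both arrays, whereas stratified and cornified epithelium had 2 of 13.

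Uterine and oviduct epithelium, which is simple epithelium rich in Krt8 and Krt18, held the 2 genes of these lists that passed the rule of size in the main processing. *Ltf*, lactoferrin, which oestrogen raises in the mouse uterus, had 443 (WT) and 1544 (HOM) with a log2 HOM/WT of 1.45. A second probe of *Ltf* was undetected, with 0.675 and 4.47. *Prss29*, a uterine gland protease, had 36.3 and 138 with 1.33. In the other direction *Ovgp1*, oviductal glycoprotein, had 238 and 144 with -0.95, and *Sox17*, a transcription factor of gland epithelium, had 918 and 668 with -0.77. A second probe of *Ovgp1* was undetected, with 4.25 and 3.54. The paper also reports *Ovgp1* as lower in HOM by array. Its fold is larger than that under any processing used here, the authors' deposited normalized values included. By quantitative PCR, however, the paper reports *Ovgp1* as higher in HOM. The direction for *Ovgp1* therefore holds for the arrays only, and why the readings differ was not tested. *Sox17* passed the rule by the mean over its 2 probes (-1.03), and *Ovgp1* with the authors' values (-1.03). With those values 6 genes of the partner and marker lists passed upward and 4 downward, *Grhl2* (-1.13) and *Tjp1* among the latter. The median over the 8 was -0.08. Their summed signal before scaling was 1760 (WT) and 2622 (HOM), of which *Ltf* alone gave 443 and 1544. The ratio of the 2 sums was 1.49, beside 1.20 over all genes. Beside these 8 genes, *Krt7* and *Krt19* had the ratios of 0.65 and 0.59 given above and *Krt8* and *Krt18* those of -0.04 and 0.12. Whether the make-up of the epithelium had a part in the keratin values was not tested. Nor was a part of oestrogen in the value of *Ltf* tested, and the paper reports oestrogen of HOM mice below the detection limit of its assay.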

How the data were processed

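RNA labelled as ovary was pooled per genotype (of 3 mice in the study's methods, whereas a supplementary heading gives 6), labelled with biotin and hybridised to 1 array each. The authors deposited background-subtracted probe intensities, not normalized between arrays, with a detection p-value per probe, from GenomeStudio per the labels (BeadStudio in the methods; version not given in the sources used here). A second deposited table of intensities differed by at most 1.57 from a linear quantile normalization of the first and served as an alternative. Array signals carry no read depth, so the number of arrays limits the precision.

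Intensities were background corrected from the detection p-values (normexp, limma 3.58.1, R 4.3.3), an offset of 16 was added, and log2 values were quantile normalized. The offset shrinks ratios of dim probes. The probe with the highest mean signal stood for a gene. Of all probes, 34885 carried 1 gene symbol, 18 several and 10378 none listed; all 95 member probes matched the reference by gene ID, with no symbol changed. For a probe detected on 1 array, a bound was set from its normalized value against that of the other array's dimmest detected probe, or its own if higher. No test was possible, and a 2-fold rule of size was used. Named were all detected members and the brightest member of classes with none. In other lists, up to 4 detected genes with the largest ratios and undetected defining markers were named. *Tekt1*, *Erg*, *Epcam*, *Ocln*, *St14*, *Ctnnd1* and *Muc1* were named besides, after their values were seen. Members and the 24 lists were chosen with earlier results of these data known. Promoter windows came from RefSeq, GRCm38.p6.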

Additional observations from a re-analysis of the deposited data

How the results depend on the processing

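The 2 arrays give no replicate to leave out, so none was left out. No paired analysis was possible because each genotype has 1 array. The number of members higher in HOM by 2-fold or more was 0, and became 1 with median scaling and 1 with no scaling (*Cldn5* in both), and 3 at a fold of 1.5 (*Cldn5*, *Krt7* and *Krt19*). The number at least 2-fold lower was 0, and became 1 without background correction and 1 with the authors' normalized values (*Cldn11*, log2 HOM/WT -1.03 in both), and 2 at a fold of 1.5 (*Cldn12* and *Cldn23*). The median log2 HOM/WT of the detected members was 0.00, and 0.18 with median scaling and 0.25 with no scaling, where the median of all detected genes was 0.22 and 0.28. The 23 detected members became 26 at a detection p-value below 0.05. Of the 23 ratios, 3 moved by more than the probe SD of 0.33 without background correction and 3 with the authors' values, each time *Krt16*, *Cldn7* and *Cldn11*, which were detected on 1 array only and rest on the offset. With an offset of 50, other scaling or the mean over detected probes none moved by more than this SD, but 4 ratios below 0 (*Krt8*, *Krt14*, *Cldn3* and *Cldn10*) lay above 0 with median scaling and with no scaling, where the median of all genes was itself higher. In the other lists, 2 genes higher and 0 lower by the 2-fold rule became 6 and 4 both without background correction and with the authors' values, 1 and 0 with an offset of 50, and 2 and 1 with the mean over detected probes (*Sox17*, -1.03). For members near the dimmest detected signals of 15.1 and 15.9 (*Krt14*, *Krt16*, *Krt17*, *Krt40*, *Krt84*, *Cldn1*, *Cldn7* and *Cldn11*), signal over background limits any reading.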
